A study of Mus musculus with 26 samples.

Results

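The loci of 8 genes that write, copy or remove DNA methylation were examined for open chromatin in mouse pluripotent cells: Dnmt1, Dnmt3a, Dnmt3b, Dnmt3l, Uhrf1, Tet1, Tet2 and Tet3. The 8 genes were taken by function from 21883 protein-coding genes. Every peak of the 26 deposited ATAC-seq lists that overlapped the gene's GRCm38 span or the 20 kb on either side was counted at its locus, which gave 570 of 451563 peaks. Overlapping or touching peaks of all lists were merged into regions, and 75 of 75600 regions lay at these loci. The windows also take in other genes, and 10 of the 75 regions were less than 1 kb from where a neighbouring gene begins or ends.

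ATAC-seq marks DNA that the transposase Tn5 can reach in nuclei. Each library was made from 50000 cells, and each was deposited as a list of called peaks, so the data give the presence of a peak and not an expression level. In a first set, 18 libraries fell into 6 groups of 3, each labelled with 1 line, medium and passage and called a culture below: FS1 (passage 21) and FS2 (passage 29), formative stem (FS) cells kept in A3XR; EpiSC_AF (passage 22), epiblast stem cells (EpiSCs) kept in AF; EpiSC_AFX1 (passage 14) and EpiSC_AFX2 (passage 16), EpiSCs kept in AFX; and ES (passage 16), embryonic stem cells kept in 2iL. In a second set, named Rd2, there were 2 libraries of ES cells in 2iL at passage 33, 4 libraries of epiblast-like cells (EpiLCs) and 2 libraries of EpiSCs in AFX at passage 16. The EpiLCs had been made from ES cells over 2 days in AF with KSR, and their GFP-low fraction was sorted. The source name of the Rd2 ES libraries is Rd2GFP, and what its GFP reports is not given in the sources used here. Titles of the Rd2 libraries carry WT, and those of the EpiLCs number cell_1 and cell_2 with 2 libraries each, so the 4 may come from 2 sources. The labels give no genotype for the first set, no strain and no treatment beyond the medium. Each group is a single line as labelled, apart from the EpiLCs, and nothing says whether the libraries of a group were grown separately, so every p below measures only the spread between these libraries, which may be technical.

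Dnmt3a and Dnmt3b place methyl groups on unmethylated CpG sites, and Dnmt3l, which has no catalytic activity of its own, helps them. Dnmt1 copies methylation to the new strand after replication and is brought there by Uhrf1, while Tet1, Tet2 and Tet3 oxidise methylcytosine as a step towards its removal. As background, naive ES cells in 2iL are known for low global methylation, and de novo methylation sets in as cells leave the naive state, when Dnmt3b is known to be induced.

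The bases upstream of 5 annotated starts are shown first, because the peaks described below cover them. RefSeq promoter entries for GRCm38.p6 gave 15 starts for the 8 genes. The 250 bases before each start are written 5′ to 3′ on the gene's strand, with every CpG site in capitals. The start of Dnmt3b (chr2:153649199-153649448, plus strand) and the internal start of Dnmt3a (chr12:3891494-3891743, plus strand) had a peak in every EpiSC library and no ES library of the first set among the top peaks defined below. Uhrf1 has an upstream start (chr17:56303087-56303336, plus strand) and a downstream start less than 1 kb away (chr17:56304063-56304312, plus strand). The ES libraries of the first set had a peak at the downstream start and none at the upstream one. The start of Tet2 (chr3:133544391-133544640, minus strand) had a peak in all ES libraries of the first set.
Dnmt3b: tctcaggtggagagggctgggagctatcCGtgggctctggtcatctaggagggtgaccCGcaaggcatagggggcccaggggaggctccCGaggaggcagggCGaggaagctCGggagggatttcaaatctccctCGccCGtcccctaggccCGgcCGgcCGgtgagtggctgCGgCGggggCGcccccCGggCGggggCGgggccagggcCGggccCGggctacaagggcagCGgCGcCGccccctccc
Dnmt3a, internal start: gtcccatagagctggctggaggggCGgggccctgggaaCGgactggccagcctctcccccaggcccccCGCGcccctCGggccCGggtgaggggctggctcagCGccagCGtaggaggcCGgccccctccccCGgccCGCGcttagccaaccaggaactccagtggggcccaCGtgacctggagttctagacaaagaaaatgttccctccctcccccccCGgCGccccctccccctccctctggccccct
Uhrf1, upstream start: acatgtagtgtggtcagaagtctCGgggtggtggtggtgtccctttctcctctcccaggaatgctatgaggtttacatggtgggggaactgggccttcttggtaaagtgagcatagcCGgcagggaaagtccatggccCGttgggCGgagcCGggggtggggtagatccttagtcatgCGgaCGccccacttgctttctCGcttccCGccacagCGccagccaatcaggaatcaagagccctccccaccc
Uhrf1, downstream start: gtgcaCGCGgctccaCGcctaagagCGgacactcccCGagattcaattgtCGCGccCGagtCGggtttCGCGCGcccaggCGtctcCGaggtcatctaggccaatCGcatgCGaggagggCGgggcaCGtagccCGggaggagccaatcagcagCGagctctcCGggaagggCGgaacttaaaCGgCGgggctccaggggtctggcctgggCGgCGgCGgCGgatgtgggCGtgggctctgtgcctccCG
Tet2: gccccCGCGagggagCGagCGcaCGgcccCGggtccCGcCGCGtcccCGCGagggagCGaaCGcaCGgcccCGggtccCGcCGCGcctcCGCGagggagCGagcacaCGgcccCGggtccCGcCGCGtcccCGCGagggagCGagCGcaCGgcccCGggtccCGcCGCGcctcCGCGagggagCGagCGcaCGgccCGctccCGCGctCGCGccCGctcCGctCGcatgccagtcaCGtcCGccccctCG

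The Dnmt3b stretch held 21 CpG sites, more than 83.7% of all 32851 annotated mouse starts, whose median was 6. The internal Dnmt3a stretch held 15 CpG sites. The other starts of Dnmt3a, near the upstream end of the gene, held 38 and 40. The stretch upstream of the first Uhrf1 start held 10 CpG sites and that of the downstream start 30. Tet2 had the most CpG sites of the 15 starts, 51, above 99.9% of all starts, and a run of 22 bases, caCGgcccCGggtccCGcCGCG, occurred 4 times in it. The lowest counts were 2, at the 5′ start of Dnmt1, and 3 to 5, at the starts of Dnmt3l.

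CpG content went with the presence of a peak at the members' starts as it did over all starts. As deposited, none of the 4 member starts with 5 or fewer CpG sites had a peak in any first-set list. Of all such starts, 9.93% had one. All 11 member starts with 6 or more CpG sites had a peak in at least 1 first-set list as deposited, against 80.3% of all such starts. Among the top peaks defined below it was 8 of these 11, against 61.6%, and 0 of the 4 with fewer sites, against 4.48%. Of the 11, those without a top peak were the upstream starts of Dnmt3a, with 38 and 40 sites, and the Tet1 start. The division at 5 sites was chosen after the values were seen, and starts of 1 gene can share bases, so these shares are a description. Fixed motifs were also searched on both strands of the 250 bases. The GC box GGGCGG occurred 3 times upstream of Dnmt3b, 3 times at the downstream Uhrf1 start and 1 time at the internal Dnmt3a start, where 32.7% of all starts held it. The CCAAT box occurred 2 times at the downstream Uhrf1 start, 1 time at its upstream start and at none of the Dnmt3 starts shown, where 33.8% of all starts held it. The E-box CACGTG occurred 1 time at the internal Dnmt3a start, where 6.02% of all starts held it. The TATA box TATAAA was in none of the 15 stretches, where 12.4% of all starts held it. The letters do not show whether a factor binds there.

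List length sets how many peaks can fall at any locus. The shortest first-set list, an ES list, held about 8000 peaks, the other ES lists 9705 and 10961, the FS lists 11796 to 31263 and the EpiSC lists 15505 to 29575. Read depth is not recorded in them. Content was therefore compared on equally many peaks of each first-set list, those with the highest −log10 p up to the length of the shortest list. This is called equal list length below, and these peaks the top peaks; the lists as deposited are given beside it. A missing peak can come from closed DNA, from fewer cells with open DNA or from signal under the authors' threshold, and these cannot be told apart. The gene-end peaks of cell type markers were counted in the same way, in the lists as deposited. Of 7 naive markers, ES libraries had a gene-end peak at 2 to 4 and the other first-set libraries at 1 to 5, with Esrrb, Tfcp2l1 and Nr5a2 at 0 in ES, so this list did not set ES apart. Zfp42, a naive marker, had one in 3 of 3 ES libraries and in 1 of the other 15. At equal list length Tbx3, another, had one in 3 of 3 ES libraries and in none of the others. Of 4 formative markers, ES libraries had 0 to 1 and the others 2 to 4, which at equal list length was 0 to 1 and 0 to 3. Of 4 primed markers, ES libraries had 0 to 1 and the others 1 to 4, and at equal list length 0 to 1 and 0 to 2, so both lists then overlapped. Of 3 endoderm markers, ES libraries had 0 and the others 0 to 2, and all had 0 at equal list length. Of 3 feeder fibroblast markers, ES libraries had 0 and the others 1 to 3, which at equal list length was 0 to 1, and the part of other cells in the results below was not tested.

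Over the 8 loci together, ES cells had fewer peaks than any other culture. The ES libraries had 8, 5 and 5 peaks at the loci, FS1 had 15, 13 and 12, and FS2 had 12, 11 and 11, at equal list length. The EpiSC_AF libraries had 12, 11 and 12, EpiSC_AFX1 had 14, 13 and 16, and EpiSC_AFX2 had 14, 12 and 13. The ES range did not overlap that of any other culture. Of the 26 regions at the loci that had a peak at equal list length, 9 (34.6%) had one in an ES library, against 55.3% of 24880 such regions in the genome. Of the lists as deposited, 13 of 64 regions (20.3%) had an ES peak, against 24.5% of 67023. The per-gene difference, ES minus FS in mean peak number at equal list length, had a median of −0.50 over the 8 members and −0.17 over 15622 genes. ES minus EpiSC_AFX had a median of −0.83 over the members and −0.17 over 15201 genes. These comparisons share the ES libraries, and the windows of genes differ in length, so the medians describe the loci and are not a test of the list.

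**Figure D1:**
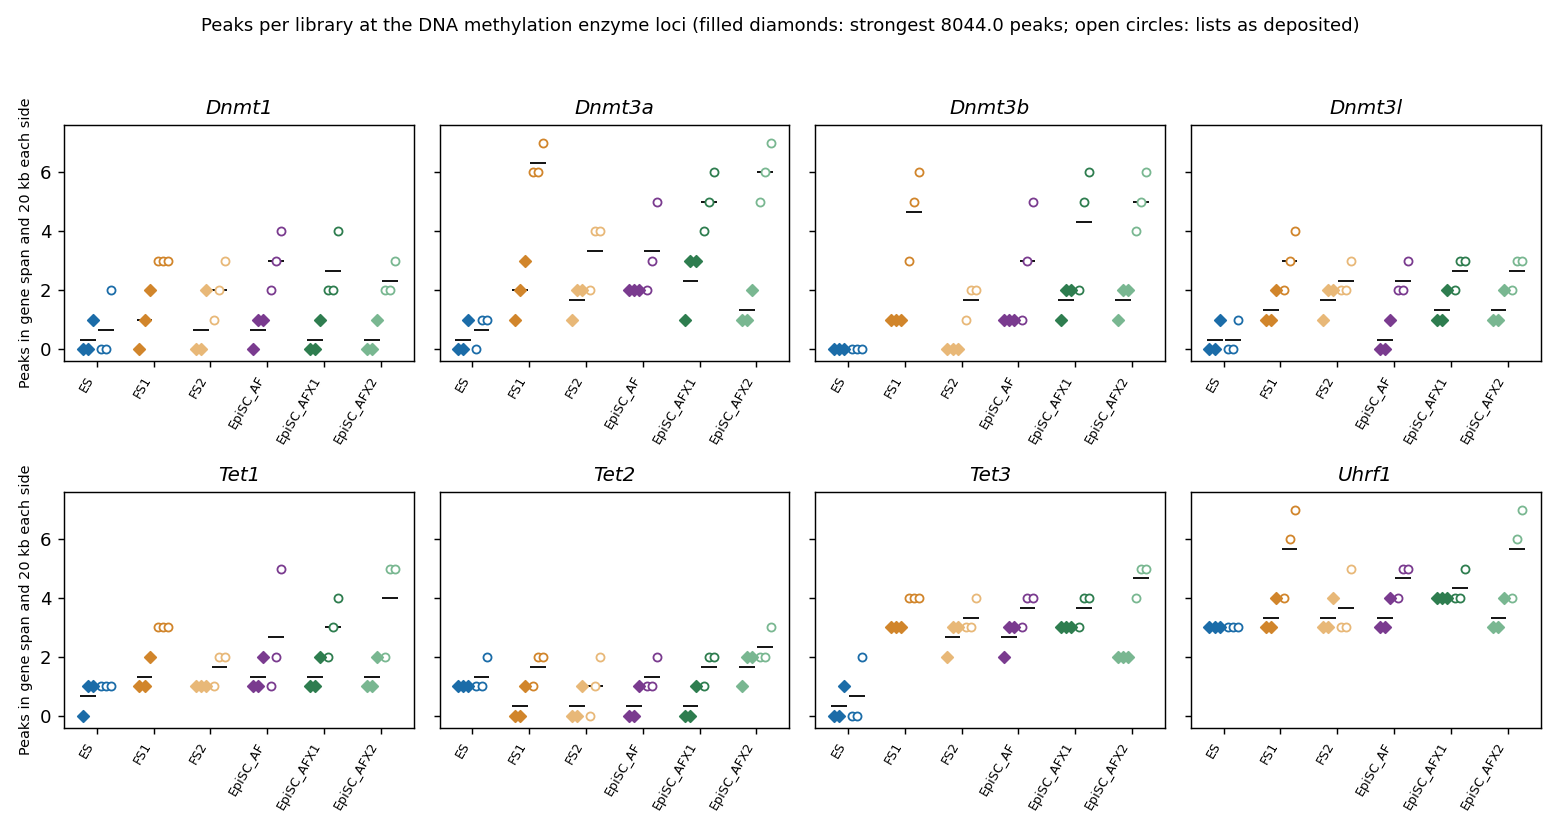
Peaks per library at each of the 8 loci, in the gene span and 20 kb on each side, for the 6 first-set cultures with 3 libraries each; filled diamonds count the top peaks (about 8000 a list), open circles the lists as deposited, and black lines are means. ES libraries had 0 peaks at Dnmt3b under both counts, and 3 at Uhrf1 in every library.

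The regions fell into 8 at a gene end (within 1 kb of an end of the span), 33 inside a gene and 34 outside. Exons and introns could not be told apart with the gene table used. All 8 gene-end regions had a peak in some first-set list other than ES, and 2 of them, at Tet2 and at the downstream start of Uhrf1, had one in ES. Of the 33 intragenic regions, 24 had a peak in a first-set list other than ES and 5 in an ES list. Of the 34 outside regions, 28 had a peak in a first-set list other than ES and 6 in an ES list. The regions with a peak in any first-set list came down, at equal list length, to 6 at gene ends, 7 inside genes and 13 outside. Of the 75 regions, 26 rested on 1 list, among them 14 of the intragenic ones and none at a gene end. As deposited, 7 regions had a peak in all 15 first-set libraries other than ES. Among them were regions at neighbours: the starts of Bola3 and Plin3 and an end of Kdm4b. The shares of all regions that rest on 1 list, or that have a peak in all 15, were not counted. Both numbers therefore only describe the loci. The ES lists are also fewer and shorter, so the class counts with and without ES cannot be set against each other.

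**Figure D2:**
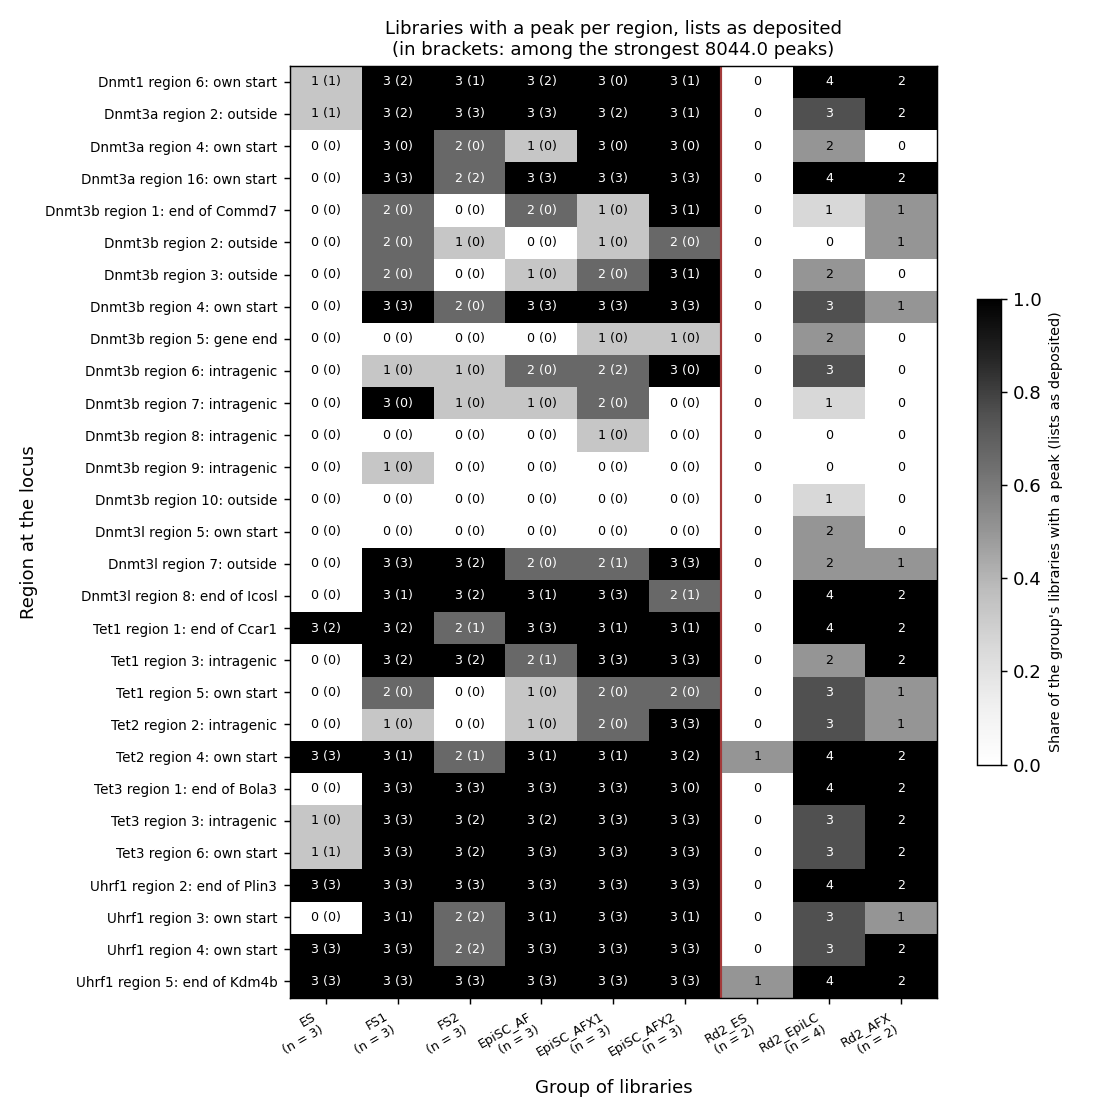
Number of libraries with a peak in the 29 regions described one by one, by group. Grey is the share of the group's libraries in the lists as deposited, and numbers in brackets count the top peaks. The red line separates the Rd2 set, for which peak calling may have differed. Every Dnmt3b row is 0 in ES and Rd2_ES, while the downstream Uhrf1 start (Uhrf1 region 4) has a peak in 3 of 3 ES libraries. Rows marked as the end of a neighbour cover its annotated start, except that of Kdm4b.

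Dnmt3b, a de novo methyltransferase on chr2:153649411-153687730, had no peak in any of the 5 ES libraries of both sets. As deposited, FS1 had 6, 3 and 5 peaks at the locus, FS2 had 1, 2 and 2, and EpiSC_AF had 1, 3 and 5. EpiSC_AFX1 had 2, 5 and 6 and EpiSC_AFX2 had 5, 6 and 4. Every first-set library other than ES had at least 1 peak there, and none of the ES libraries did. Dnmt3b was the only member of the 8 with this pattern, which 4.21% of 19345 genes with a peak had. Among the top peaks FS1 and EpiSC_AF had 1 peak in each library, FS2 had 0 in each, and EpiSC_AFX1 and EpiSC_AFX2 had 2, 1 and 2 each.

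ES minus EpiSC_AFX in mean peak number at Dnmt3b was −1.67 at equal list length, with all 6 EpiSC_AFX libraries above all 3 ES libraries. The exact two-sided permutation p was 0.0119, the smallest that 3 against 6 libraries allow, and the adjusted p over 15201 genes was 0.169, which missed the threshold of 0.05. In the lists as deposited the difference was −4.67, with the same exact permutation p of 0.0119 and an adjusted p of 0.0435. ES minus FS was −0.50 at equal list length, since FS2 had no peak among its top peaks (exact permutation p = 0.464, adjusted p = 0.903). FS minus EpiSC_AFX was −1.17, with an adjusted p of 1 (exact permutation p = 0.0216). Within FS the line FS1 had 1 peak in each library, and FS2 had 0 in each.

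By their centres, the 10 regions at Dnmt3b ran from −16.89 to 45.14 kb from the start. Region 4 (chr2:153648873-153649594) covers the annotated start and the upstream bases printed above. In the first set it had a peak in 3 of 3 libraries of FS1, EpiSC_AF, EpiSC_AFX1 and EpiSC_AFX2, in 2 of 3 of FS2 and in 0 of 3 of ES. Its ranks by −log10 p, each within its own list, were 4573, 5780 and 4364 in FS1, 4915, 4390 and 3101 in EpiSC_AF, 3400, 4239 and 5865 in EpiSC_AFX1, and 2433, 7767 and 2428 in EpiSC_AFX2. These 12 peaks all stayed among the top peaks. In FS2 replicate 1 the rank was 8146 of 14147 peaks, just outside that number, and in FS2 replicate 3 it was 10565 of 12960, while replicate 2 had no peak at the start. The FS2 libraries were thus split at the start, and the other 4 cultures apart from ES were not.

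Upstream of Dnmt3b, region 3 (chr2:153642598-153643469) and region 2 (chr2:153639386-153639710) lay 5980 and 9739 bp before the start. Region 3 had a peak in 2 of 3 FS1, 1 of 3 EpiSC_AF, 2 of 3 EpiSC_AFX1 and 3 of 3 EpiSC_AFX2 lists as deposited, and in none of FS2 or ES. Region 2 had one in 2 of 3 FS1, 1 of 3 FS2, 1 of 3 EpiSC_AFX1 and 2 of 3 EpiSC_AFX2 lists. Both were almost lost at equal list length, with 1 EpiSC_AFX2 library at region 3 and none at region 2. Region 1 (chr2:153632262-153632861) covers the annotated start of Commd7, the neighbour. It had a peak in 2 of 3 FS1, 2 of 3 EpiSC_AF, 1 of 3 EpiSC_AFX1 and 3 of 3 EpiSC_AFX2 lists.

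Inside Dnmt3b, region 6 (chr2:153651641-153651982), 2192 bp into the gene, had a peak in 3 of 3 EpiSC_AFX2, 2 of 3 EpiSC_AFX1, 2 of 3 EpiSC_AF, 1 of 3 FS1 and 1 of 3 FS2 lists. Among the top peaks it was left in 2 EpiSC_AFX1 libraries only. Region 7 (chr2:153660660-153660964), 11211 bp into the gene, had a peak in 3 of 3 FS1 lists, 2 of 3 EpiSC_AFX1, 1 of 3 FS2, 1 of 3 EpiSC_AF and 0 of 3 EpiSC_AFX2. Its ranks in FS1 were 8564, 13348 and 8469, so none was a top peak. Region 5 (chr2:153650181-153650440), 732 bp past the start, had a peak in 1 EpiSC_AFX1 and 1 EpiSC_AFX2 list of the first set. Regions 8 and 9 had a peak in 1 list each, an EpiSC_AFX1 and an FS1 list, past the middle of the gene. The start was therefore the only place at Dnmt3b where several cultures had strong peaks in all libraries.

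**Figure D3:**
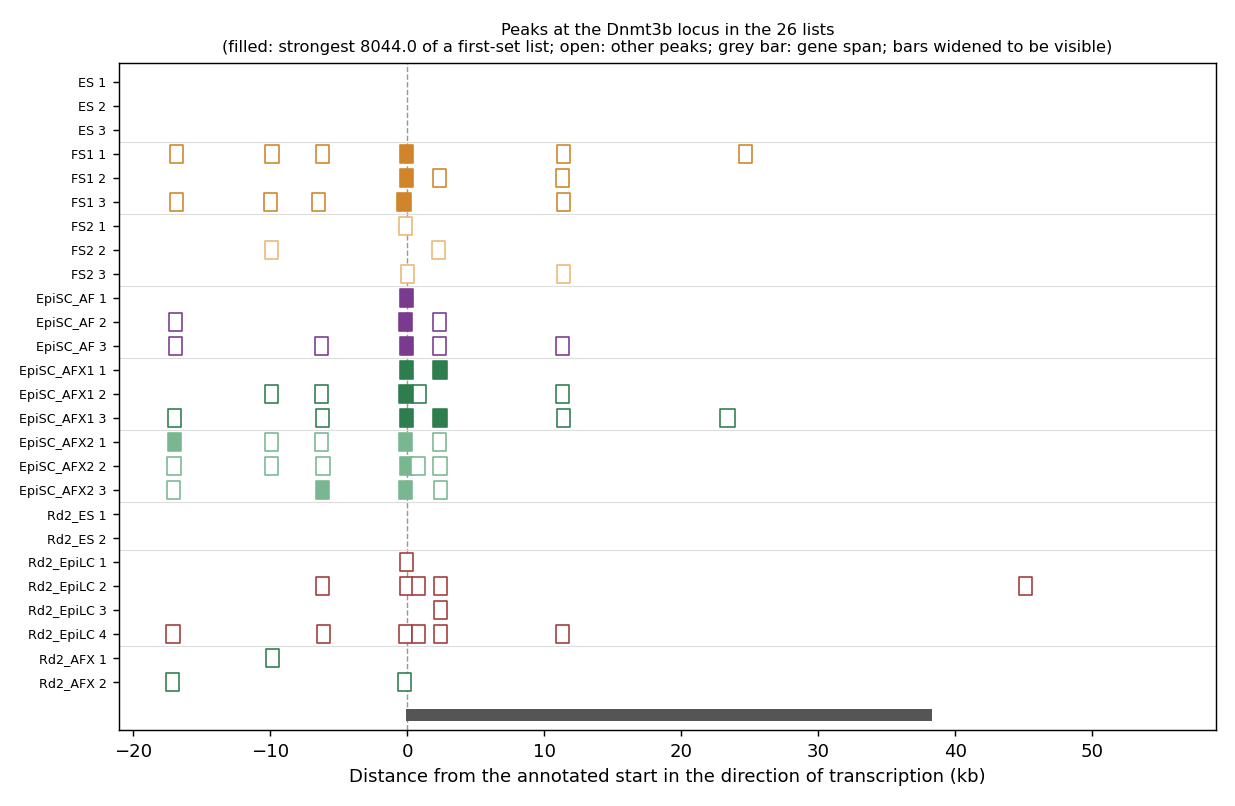
Peaks at Dnmt3b in each of the 26 lists, drawn by distance from the annotated start in kb; filled bars are top peaks of a first-set list, open bars are other peaks, including all of the Rd2 set, and the grey bar is the gene span. The 12 filled bars at 0 belong to FS1, EpiSC_AF, EpiSC_AFX1 and EpiSC_AFX2, and the rows of ES and Rd2_ES are empty.

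In the Rd2 set, the Dnmt3b start had a peak in 3 of 4 EpiLC lists and in 1 of 2 EpiSC lists. The EpiLC ranks were 6989 of 10563, 7247 of 23608 and 11422 of 26045, and the third EpiLC library, with 7469 peaks the shortest list, had none at the start but 1 at region 6. The EpiSC peak, in replicate 2, ranked 10596 of 10719, close to the bottom of its list. Stronger in the Rd2 EpiSCs were region 2 in replicate 1, at 3944 of 11252, and region 1 in replicate 2, at 6654 of 10719. Region 5 was in 2 of 4 EpiLC lists. It ranked 5344 of 23608 in replicate 2, above the start peak of that list, and 20764 of 26045 in replicate 4. Region 6 had a peak in 3 of 4 EpiLC lists and 0 of 2 EpiSC lists, and region 10 (chr2:153694227-153694950), past the 3′ end, in 1 EpiLC list alone. The Rd2_ES lists held 471 and 2576 peaks, so their 0 at Dnmt3b says little at this list length.

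Dnmt3a (chr12:3801559-3914443), the other de novo methyltransferase, had peaks at separate starts with different strength. Region 16 (chr12:3891393-3892133) covers the internal start printed above. It was in 3 of 3 libraries of FS1, EpiSC_AF, EpiSC_AFX1 and EpiSC_AFX2 and in 2 of 3 of FS2, and each of these 14 peaks was among the top peaks. No ES library had it. Its ranks reached 635 of 21549 in EpiSC_AF and 691 of 25641 in EpiSC_AFX2. Relative to list length its weakest first-set peaks were in FS2, at 4812 of 12960 and 4084 of 14147. The weakest in EpiSC_AFX1 was at 5335 of 27485. Peak presence in EpiSC_AFX against ES gave an exact Fisher p of 0.0119 and that in FS against ES 0.0476, and neither passed after adjustment over all regions, where the lowest adjusted p values were 0.223 and 0.31. In the Rd2 set it was in 4 of 4 EpiLC and 2 of 2 EpiSC lists.

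Region 4 of Dnmt3a (chr12:3805939-3808023) covers the pair of CpG-rich starts near the 5′ end. As deposited it was in 3 of 3 FS1, EpiSC_AFX1 and EpiSC_AFX2 libraries, 2 of 3 FS2, 1 of 3 EpiSC_AF and 0 of 3 ES, but none of these peaks was among the top peaks. Of these peaks, 6 reached the promoter entry of the first of the starts and 5 that of the second. The strongest of these 6 within its list ranked 12735 of 31263, in FS1 replicate 3. Region 2 (chr12:3791800-3792515), 14465 bp before these starts and outside the gene, was in all 15 libraries other than ES and in 1 of 3 ES libraries, where it ranked 7151 of 10961. So at Dnmt3a the region of the internal start, with 15 CpG sites, gave stronger peaks than the region of the starts with 38 and 40. This held within every first-set list with a peak in both regions. FS2 replicate 2 had a peak in region 4 alone, at 8453 of 11796. Peak number at Dnmt3a at equal list length was 1, 0 and 0 in ES, 3, 2 and 1 in FS1, 2, 1 and 2 in FS2, 1, 3 and 3 in EpiSC_AFX1 and 1, 1 and 2 in EpiSC_AFX2. ES minus FS and ES minus EpiSC_AFX were both −1.50, with exact permutation p values of 0.0714 and 0.107, and the groups overlapped at 1 peak.

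Dnmt3l (chr10:78042287-78063622), the catalytically inactive cofactor, had no peak at any of its 3 annotated starts in the first set. Only EpiLCs had one, at the internal start, in 2 of 4 lists and at low rank (19226 of 23608 and 24315 of 26045). Its window held the annotated start of Aire next to its 5′ end, where 8 first-set libraries had a peak, none of them ES. Region 7 (chr10:78067307-78067590), past the 3′ end, was in 3 of 3 FS1, 3 of 3 FS2, 2 of 3 EpiSC_AF, 2 of 3 EpiSC_AFX1, 3 of 3 EpiSC_AFX2 and 0 of 3 ES lists. It was a top peak in 5 of 6 FS libraries (exact Fisher p = 0.0476 against ES before adjustment). Region 8 (chr10:78069113-78069760) covers the annotated start of Icosl and was in 14 of 15 libraries other than ES and in no ES library. Peaks in the Dnmt3l window were thus outside the gene in the first set, apart from those at the Aire start.

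Uhrf1 (chr17:56303337-56323486), which recruits Dnmt1 to half-methylated sites, had 3 peaks in every ES library, 1 of them at a start of its own. Region 4 (chr17:56304039-56304443) at the downstream start was in 3 of 3 libraries of ES, FS1, EpiSC_AF, EpiSC_AFX1 and EpiSC_AFX2 and in 2 of 3 of FS2, all among the top peaks. Its ES ranks were 2710 of 10961, 2384 of about 8000 and 3804 of 9705. Region 3 (chr17:56303132-56303486) at the upstream start was in no ES library and in 14 of 15 others, the exception being 1 FS2 library. Of these 14, 8 were top peaks, among them all 3 EpiSC_AFX1 libraries (exact Fisher p for EpiSC_AFX against ES 0.167). As deposited, the ES cells thus had a peak at the CpG-rich downstream start only, while most other libraries had a separate peak at each start. At equal list length the upstream peak was in 8 of the 15 other libraries. Its presence was not called different from ES in FS (exact Fisher p = 0.464) or in EpiSC_AFX. The window also held the annotated start of Plin3 (region 2, chr17:56290063-56291540) and an end of Kdm4b (region 5, chr17:56325554-56326445). Both had a peak in all 18 first-set libraries at equal list length. Uhrf1 therefore had 3 peaks in every ES library and 3 or 4 in every other library at equal list length, and ES minus FS was −0.33 (exact permutation p = 0.5).

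Dnmt1 (chr9:20907206-20959888), the maintenance methyltransferase, had region 6 (chr9:20952331-20953143) over its internal pair of starts. It was in all 15 first-set libraries other than ES and in 1 of 3 ES libraries, where it ranked 5349 of 10961. Among the top peaks it was in 7 of 18 libraries: 2 of FS1, 1 of FS2, 2 of EpiSC_AF, 0 of EpiSC_AFX1, 1 of EpiSC_AFX2 and 1 of ES. The peak was therefore of middling rank, and neither FS nor EpiSC_AFX was called different from ES there (exact Fisher p = 1 for both). The start at the 5′ end of the span, with 2 CpG sites, had no peak in any of the 26 lists. In the Rd2 set region 6 was in 4 of 4 EpiLC and 2 of 2 EpiSC lists. Region 7 (chr9:20976353-20977336) covers the annotated start of S1pr2. It was in all 6 EpiSC_AFX lists as deposited and no ES list, but in none of those 6 at equal list length.

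Tet1 (chr10:62804570-62887469), a methylcytosine dioxygenase, had few peaks at its start. Region 5 (chr10:62886998-62887650) over the start was in 7 of 18 first-set lists as deposited, none of them ES or FS2, and in none at equal list length. An intragenic site, region 3 (chr10:62865238-62866140), 21184 bp into the gene, was stronger. It was in 3 of 3 FS1, FS2, EpiSC_AFX1 and EpiSC_AFX2 libraries, 2 of 3 EpiSC_AF and 0 of 3 ES. It was a top peak in all 6 EpiSC_AFX libraries and in 2 of 3 FS1, 2 of 3 FS2 and 1 of 3 EpiSC_AF libraries (exact Fisher p for EpiSC_AFX against ES 0.0119, before adjustment). Its ranks were 2813, 1855 and 2470 in EpiSC_AFX1 and 4937, 6276 and 4835 in EpiSC_AFX2, and 960 of 11252 and 854 of 10719 in the Rd2 EpiSCs, where it was near the top of both lists. In EpiLCs it was in 2 of 4 lists, at 14665 of 23608 and 9264 of 26045. Within the Tet1 gene, region 3 was thus the strongest site in every list of EpiSCs in AFX, in both sets. Region 1 (chr10:62791223-62793192) covers the annotated start of Ccar1 and was in 17 of 18 first-set lists, including all 3 of ES.

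Tet2 (chr3:133463677-133545136), the second dioxygenase, had a peak at its start in all 3 first-set ES libraries. Region 4 (chr3:133543907-133545141) was in 3 of 3 libraries of every first-set culture except FS2, which had 2 of 3. Among the top peaks it was in 3 of 3 ES libraries, at ranks 6842, 4537 and 4144, in 1 of 3 of FS1, FS2, EpiSC_AF and EpiSC_AFX1, and in 2 of 3 of EpiSC_AFX2. Presence in ES against FS gave an exact Fisher p of 0.167, so this was not a called difference. Tet2 was the only member whose mean peak number at equal list length was higher in ES than in FS. The difference was 0.67 (exact permutation p = 0.167, adjusted p = 0.701). It was 0.00 in the lists as deposited and −0.33 when peaks under a −log10 q of 5 were left out. That limit left lists of unequal length, with 761 to 1041 peaks in ES and 1238 to 10170 in FS. Region 2 (chr3:133533496-133534666), inside the gene, was in 3 of 3 EpiSC_AFX2 libraries at equal list length and in no other library. As deposited it was also in 2 of 3 EpiSC_AFX1, 1 of 3 FS1 and 1 of 3 EpiSC_AF lists. The EpiSC_AFX lines thus differed at this site at equal list length, where 3 against 3 libraries cannot give a p under 0.05. Among the Rd2 lists, region 4 was 1 of the 2 regions of all 8 loci with a peak in an ES library, though this peak did not reach the promoter entry of the start.

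Tet3 (chr6:83362373-83457208), the third dioxygenase, had the smallest p that the design allows in both comparisons with ES. At equal list length the ES libraries had 1, 0 and 0 peaks, FS1 had 3, 3 and 3, FS2 had 2, 3 and 3, EpiSC_AFX1 had 3, 3 and 3 and EpiSC_AFX2 had 2, 2 and 2. All FS and EpiSC_AFX libraries were above all ES libraries. ES minus FS was −2.50 and ES minus EpiSC_AFX −2.17, each with an exact permutation p of 0.0119, the smallest possible, and adjusted p values of 0.242 and 0.169. In the lists as deposited ES minus EpiSC_AFX was −3.50, with an adjusted p of 0.0435 from the same exact permutation test.

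Of the 3 strong regions in the Tet3 window, 1 belongs to a neighbour. Region 1 (chr6:83349069-83349873) lies at the start of Bola3, was in all 15 first-set libraries other than ES and in no ES library, and was the only one of the 75 regions with this pattern, which 1.35% of 67023 regions had. Region 6 (chr6:83441286-83442058) covers the annotated Tet3 start, and also that of B230319C09Rik, so it cannot be given to Tet3 alone. It was in all 15 libraries other than ES and in 1 ES library, with ranks of 739 to 3723 in the EpiSC lists and 5387 of 10961 in the ES list. Region 3 (chr6:83421721-83422425), 19253 bp into Tet3, was in all 15 as well, and in 1 ES library outside its top peaks. Among the top peaks region 3 was in 5 of 6 FS, 6 of 6 EpiSC_AFX and 0 of 3 ES libraries (exact Fisher p = 0.0476 and 0.0119, before adjustment). With the window narrowed to 10 kb, which leaves out the Bola3 region, ES minus FS was −1.50 peaks (exact permutation p = 0.0238) and ES minus EpiSC_AFX −1.67 (exact permutation p = 0.0119). Region 7 (chr6:83455899-83456968), at the 5′ end of the span, was in 11 libraries other than ES in the lists as deposited and in 1 FS2 library at equal list length.

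**Figure D4:**
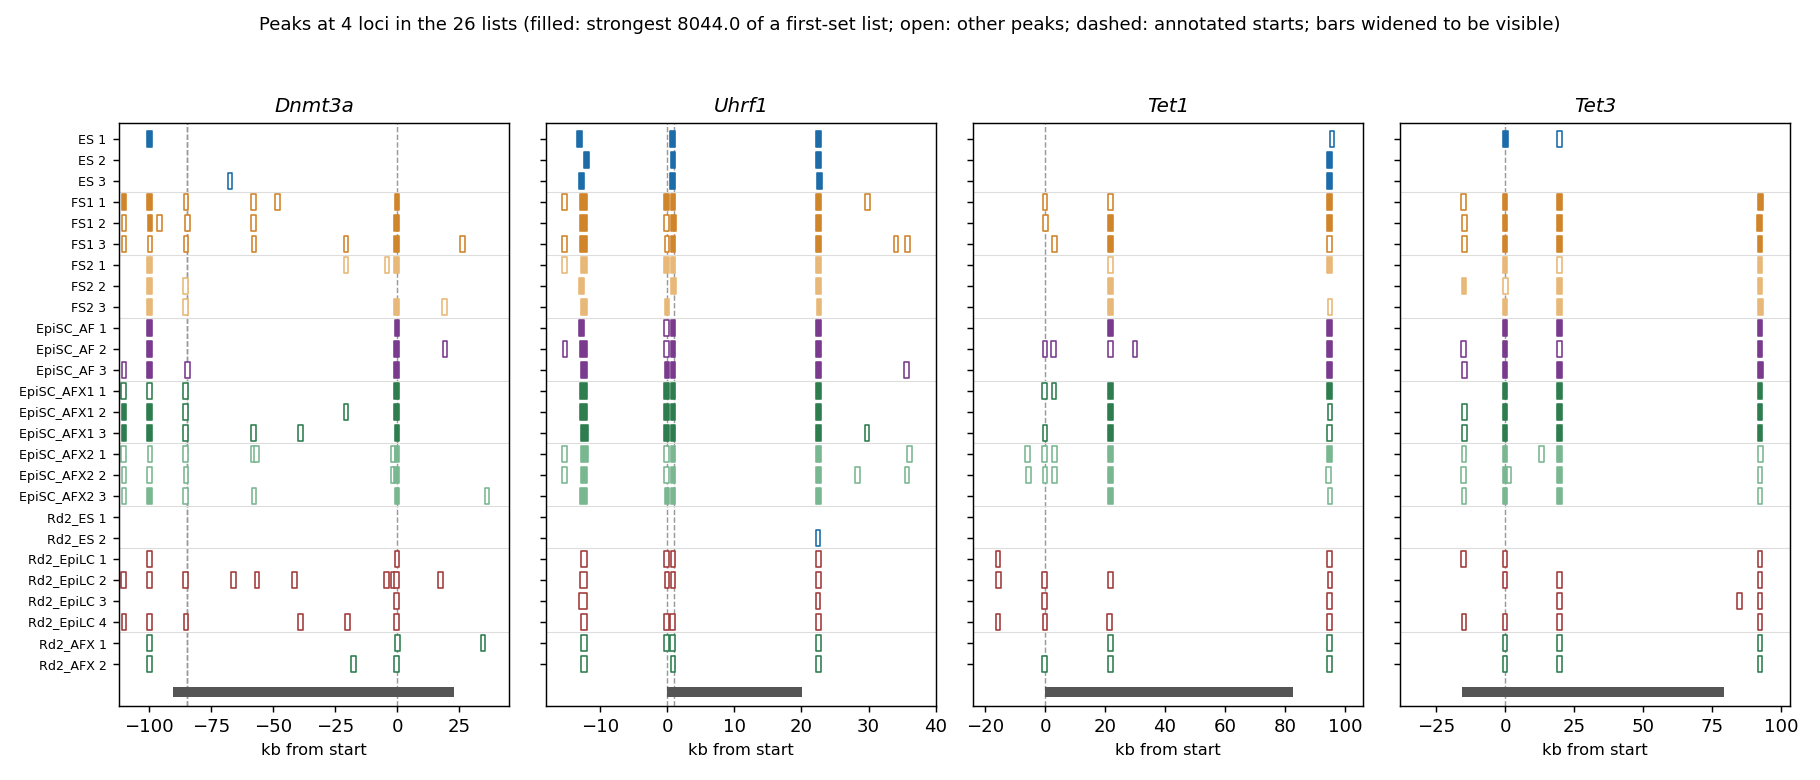
Peaks at Dnmt3a, Uhrf1, Tet1 and Tet3 in each of the 26 lists, by distance in kb from an annotated start (the internal start of Dnmt3a, the upstream start of Uhrf1) in the direction of transcription; filled bars are top peaks of a first-set list and dashed lines are annotated starts. The ES rows are empty at the internal Dnmt3a start, at the upstream Uhrf1 start and at Tet1 21.64 kb into the gene, and filled at the downstream Uhrf1 start.

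A region was counted as held by one cell type alone when all its libraries had a peak there and no library of the other type did. Between FS and ES at equal list length, 1 of 22 regions at the loci was held by FS alone, against 1.71% of all regions. It was the Bola3 start in the Tet3 window. ES alone held 0 of 22, against 2.13%. Between EpiSC_AFX and ES, 4 of 23 were held by EpiSC_AFX alone, against 2.6% of all regions, and 0 of 23 by ES alone, against 2.75%. These 4 were the Dnmt3b start, the internal Dnmt3a start, Tet1 region 3 and Tet3 region 3, all of them at or inside the member gene. No region at the loci was separated between FS and EpiSC_AFX in either direction (0 of 25, against 0.182% of all regions), between FS and EpiSC_AF (0 of 21, against 0.898%) or between EpiSC_AF and EpiSC_AFX (0 of 22, against 0.4%), shares at which 0 among so few regions is no result about the loci. Single libraries of FS2 set the FS count. Without FS2 replicate 1 it was 3 of the regions tested, with Dnmt3l region 7 and Tet3 region 3 added. Without FS2 replicate 2 it was 2, with the internal Dnmt3a start added. The shares of all regions without these libraries are not given, so both counts describe the loci only.

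As deposited, where ES lists are shorter, FS alone held 4 of 50 regions (2.91% of all regions): Tet1 region 3, Dnmt3l regions 7 and 8 and the Bola3 start. EpiSC_AFX alone held 8 of 53 (8.23% of all regions): the Dnmt3b start, Dnmt3a regions 1, 4 and 16, Tet1 region 3, the upstream Uhrf1 start, Dnmt1 region 7 and the Bola3 start. ES alone held none in either. Over the genome it held 243 of 47898 and 255 of 51167 regions, so 0 here is no result about the loci. Counted by gene end, EpiSC_AFX alone held 1 of the 3 members with a gene-end peak in that comparison, Dnmt3b, against 3.09% of genes, and FS alone held 0 of 4, against 1.94%. The Dnmt3b end was not separated (0 members) when peaks were ranked by fold enrichment or when only the top 4000 were kept. As deposited these were Dnmt3b, 1 of 6 (15.9% of genes), and 0 of 5 (5.6% of genes). Counted by annotated start, EpiSC_AFX alone held Dnmt3a and Dnmt3b under both list lengths. These were 2 of the 6 members with a start peak at equal list length, against 3.22% of genes, and 2 of 7 as deposited, against 15.1%. FS alone held 0 of 7 as deposited, against 5.71%. Taken start by start, the upstream start of Uhrf1 also had a peak in every EpiSC_AFX and no ES library as deposited, while the downstream start of that gene had one in ES.

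With p adjusted, no region and no gene of the loci or of the whole table passed the threshold at equal list length, in 5 comparisons. By Fisher's exact test at an unadjusted p under 0.05, 4 of 22 member regions differed between ES and FS, against 6.7% of all regions, 4 of 23 between ES and EpiSC_AFX, against 8.17%, and 1 of 21 between FS and EpiSC_AF (Dnmt3l region 7), against 2.6%. None differed between FS and EpiSC_AFX (0.829% of all regions) or between EpiSC_AF and EpiSC_AFX (1.31%). Leaving out any 1 library gave 1 to 3 member regions for ES and FS and 4 to 5 for ES and EpiSC_AFX. For FS and EpiSC_AF it gave 0, except without FS2 replicate 1, where it stayed 1. With the replicate number as a block the counts were 1, 4 and 0. For left-out libraries and blocks the shares of all regions are not given, so these counts describe the loci only. By the exact permutation test of peak number at an unadjusted p under 0.05, 1 of 8 members was higher in FS than in ES (Tet3), against 6.3% of genes. Higher in EpiSC_AFX than in ES were 2 of 8, Dnmt3b and Tet3, against 8.3% of genes. As deposited these counts were 5 of 8, Dnmt1, Dnmt3a, Dnmt3b, Dnmt3l and Tet3, against 16.9% of genes, and 5 of 8, Dnmt3a, Dnmt3b, Dnmt3l, Tet1 and Tet3, against 38.7%. After adjustment, 4 of the latter passed in the lists as deposited (Dnmt3a, Dnmt3b, Dnmt3l and Tet3), where 5125 of 18711 genes (27.4%) passed. The call at these loci thus came with a difference at many genes, none of which passed at equal list length. The cause of this change was not tested.

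The Rd2 set gave the same loci in cells 2 days out of the ES state. Of the 75 regions, 44 had a peak in an EpiLC list, where 43.1% of all 75600 regions had one, 23 in an Rd2 EpiSC list (18.8% of all) and 2 in an Rd2 ES list (3.55%). A peak in all 4 EpiLC lists and both EpiSC lists was found at 8 regions (5.74% of all). Those of the members were at the internal starts of Dnmt3a and Dnmt1 and at the Tet2 start. The others lay at neighbours: the starts of Bola3, Ccar1, Icosl and Plin3 and an end of Kdm4b. At Tet2 the start itself was reached in 3 of the 4 EpiLC lists. No region was in every EpiLC list and no EpiSC list (0.66% of all), or in every EpiSC list and no EpiLC list (0.183%). These zeros rest on single libraries: the first became 3 without Rd2_EpiLC replicate 3 and 1 without Rd2_EpiLC replicate 1, and the second 1 without Rd2_AFX replicate 1 and 2 without Rd2_AFX replicate 2. Without Rd2_ES replicate 2, no region had an Rd2 ES peak. Shares of all regions without single Rd2 libraries are not given, so these changes describe the loci only. The shortest of these 6 lists held 7469 peaks. Tet1 region 7 (chr10:62902745-62903157), before the Tet1 start, and Dnmt1 region 5 (chr9:20943914-20944258), inside Dnmt1, were in 3 of 4 EpiLC lists and in none of the other 22 lists, and were chosen after their values were seen. With 4 against 2 libraries no test was made, and the sets were not compared directly.

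Over the 18 first-set libraries at equal list length, the genes whose peak numbers ran most like those of Dnmt3b were Plscr3 and Tmem256 (Pearson r = 0.872 for both, neighbours whose windows overlap), Golga2 (0.855) and Dazap1 (0.854). The next value, 0.853, was shared by 9 genes, among them Tcf15, a formative marker, and Eif1ax. These values rank 15638 genes and carry no test, because the libraries of a culture share its source. Tcf15 had a mean of 0 in ES and FS2 and 1 in FS1 and the EpiSC cultures. Among the other members, r with Dnmt3b was 0.503 for Tet1, 0.43 for Uhrf1, 0.423 for Tet3, 0.357 for Dnmt3a, 0.151 for Tet2, 0.119 for Dnmt3l and 0.0122 for Dnmt1. Tet1 was thus the closest of these members, but it ranked 1408 of the 15638 genes, and Dnmt1, the least alike, ranked 8685. The Tet1 count also takes in the peak at the Ccar1 start. The ranks therefore do not single out the members.

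A further 34 genes of the pathway, fixed as a list, were examined the same way: maintenance and chromatin remodelling, readers of CpG sites, guards of imprints, excision and repair of oxidised bases, and supply of cosubstrates. All 34 were in the gene table. Of the 21 with a gene-end peak in the EpiSC_AFX or ES libraries at equal list length, 2 had one in every EpiSC_AFX and no ES library, against 3.09% of genes: Tdg, the glycosylase that removes oxidised methylcytosine, and Parp1, a DNA repair enzyme. In every FS and no ES library it was 0 of 20, against 1.94%. In the lists as deposited these counts were 6 of 26, against 15.9%, and 4 of 26, against 5.6%, where Hells, a remodeller needed for DNA methylation, and Cxxc1, which binds unmethylated CpG sites, joined Tdg and Parp1 in both. None of the 34 had a gene-end peak in ES alone under either list length. Over all genes, ES alone held 81 of 9925 against FS and 95 of 9521 against EpiSC_AFX at equal list length. As deposited it held 14 of 13336 and 14 of 13642. At such shares 0 among so few genes is no result about the pathway. At an unadjusted exact permutation p under 0.05 at equal list length, 2 of 32 genes tested had more peaks in FS than in ES, Cxxc1 and Smug1, against 6.3% of genes. For EpiSC_AFX over ES it was 1 of 30, Parp1, against 8.3%. None had more in ES. Over all genes, 1438 of 15622 differed between ES and FS, 984 of them with more in FS. Between ES and EpiSC_AFX 1772 of 15201 differed, 1261 of them with more in EpiSC_AFX. So 0 among these few genes is no result about the pathway.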

How the data were processed

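The ATAC-seq data of 26 libraries were deposited as 1 broadPeak list each. Per the labels' processing notes, the submitters name mm10, Trim Galore, Bowtie, Picard and MACS2, without versions. In a deposited list each peak has the authors' score, their fold enrichment (a ratio) and their −log10 p-value and −log10 q-value, which were used only within that list. The shortest peak is 150 bp in the first set and 110 bp in Rd2, so peak calling may have differed between the sets. At most 0.0746% of peaks had identical coordinates in 2 libraries of one group. Depth is not in the lists, so no counting interval is given.

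Gene spans and promoter entries are RefSeq GRCm38.p6, the build named mm10. All 8 members matched. A region is the union of overlapping or touching peaks, and 1 bp counts as presence. FS joins FS1 and FS2, and EpiSC_AFX joins EpiSC_AFX1 and EpiSC_AFX2. Presence was tested by Fisher's exact test per region, and peak number per gene window by an exact two-sided permutation over libraries (Python 3.11.15, SciPy 1.17.1), with Benjamini-Hochberg adjustment over all regions or genes and a threshold of 0.05. Scripts were tested on simulated data. Described one by one were regions at annotated starts, all Dnmt3b regions, and regions with a peak in all 3 libraries of a culture at equal list length; Tet3 region 7, Dnmt1 regions 5 and 7, Tet1 region 7, Dnmt3a region 1 and Dnmt3l region 4 fall outside this rule and were named after their values were seen. The likest genes are the 5 with the highest Pearson r, ties included. The members, lists and rules were chosen with earlier results of these data known. Alternatives changed the list length, ranking, threshold, overlap, window and libraries, and annotated starts in place of span ends were added after the data were seen.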

Additional observations from a re-analysis of the deposited data

Results flagged for a closer look

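In groups of 4 to 10 libraries, 24 sets of peak numbers were examined for a value far from the others, and 5 stood out by Dixon's criterion, where chance gives about 1 in 20. With whole numbers this small, 1 library that differs by 1 peak is enough. Rd2_EpiLC replicate 3, the shortest EpiLC list, had 1 peak at Dnmt1 where the other 3 had 3 each, and 3 at Uhrf1 where the others had 5 each. Rd2_EpiLC replicate 4, the longest, had 4 peaks at Tet3 where the others had 3. At equal list length FS1 replicate 2 had 2 peaks at Tet1 where the other FS libraries had 1, and FS2 replicate 1 had 2 at Tet3 where the others had 3.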

How the results depend on the processing

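Of 236 values of counts under an alternative, 210 kept within 1.5 times the reported value, and of 238 values for single members 8 changed direction. Regions in FS and not ES numbered 4 in the lists as deposited and 0 with a −log10 q of at least 5, with the top 4000 peaks, with peaks over at least 50% of the region, or with a window of 10 kb. Regions in EpiSC_AFX and not ES numbered 8 as deposited, 7 with a −log10 q of at least 5, 2 ranked by fold enrichment, 1 with the top 4000 and 2 with the 50% overlap. Members past the peak number test between ES and EpiSC_AFX numbered 4 as deposited and 4 at −log10 q of at least 5. Members with a gene end in EpiSC_AFX and not ES numbered 0 ranked by fold, 0 with the top 4000, 2 at −log10 q of at least 5 and 2 with annotated starts under either list length. At −log10 q of at least 5, 1 region was in EpiSC_AFX and not EpiSC_AF. For Rd2, that limit gave 1 region in every EpiSC and no EpiLC list, 0 in every list of both, 8 in any EpiLC, 5 in any EpiSC and 0 in any ES list, and equal length gave 2, 2 and 19 for the first 3 of these. At a −log10 q of at least 5 the ES lists kept 761 to 1041 peaks and the EpiSC_AFX lists 4844 to 11673, so list lengths were unequal. Shares over all regions or genes are not given for these alternatives, or for the left-out libraries below. The counts therefore describe the loci only. The cause of the changes between settings was not tested.

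Directions reversed for Tet2 in ES minus FS (−0.33 at −log10 q of at least 5), Dnmt3l in ES minus EpiSC_AFX (0.17 with the top 4000), and in FS minus EpiSC_AFX for Dnmt1 (−0.33 with 50 kb), Tet1 (0.17 with 50 kb), Dnmt3l (−0.50 at −log10 q of at least 5) and Tet3 (−0.50 as deposited, −0.83 at −log10 q of at least 5, −0.17 with 10 kb). None of these had passed a test. Leaving out 1 library at a time gave 1 to 3 regions in FS and not ES, 0 to 1 in FS and not EpiSC_AF, 0 to 1 in EpiSC_AFX and not EpiSC_AF, 0 to 3 in every EpiLC and no Rd2 EpiSC list, 0 to 2 in the converse, and 0 to 2 in any Rd2 ES list. With the replicate number as a block, no adjusted call changed, the regions at an unadjusted p under 0.05 went from 4 to 1 for ES and FS and from 1 to 0 for FS and EpiSC_AF, and Dnmt3b in ES minus EpiSC_AFX stayed at −1.67 (exact permutation p = 0.037). Same-numbered libraries did not deviate together (r from −0.0523 to 0.0353 over 45 pairs), so the numbers were not taken as pairs.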
